A study of Mus musculus with 6 samples.

Results

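Genes of the type 2 immune response and its epithelial alarms were followed in lesional skin of psoriasis mice, as 10 genes chosen by name: Il33, Tslp, Il1rl1, Il31ra, Il4ra, Il13ra1, Il13ra2, Retnla, Chil3 and Chil1. All 10 were found among the 35434 genes of the expression table, each as a single row. The mice had received a transfer of regulatory T cells (Treg), a T cell type that restrains immune responses, and the skin was profiled by RNA-seq. In 3 samples the treatment label was Ctrl-Treg and in 3 it was Lenv-Treg, where the series title names lenvatinib, a kinase inhibitor used against cancers, as the agent given to the cells. Both groups carried the disease and both received Treg, so no sample of healthy skin and none without a transfer enters these comparisons. The sources used here do not give the strain, age and sex of the mice, the way the disease was induced, or the dose and timing of lenvatinib and of the transfer. They also do not state that the samples are from different animals, so a p-value measures only the spread between the 3 samples of a group, and that spread may be technical.

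IL-33 and TSLP are called alarmins because barrier cells make them and release them on damage, which alerts innate lymphoid cells, mast cells, T helper cells and dendritic cells. IL-33 acts through ST2, the product of Il1rl1. The cells it alerts can make IL-4 and IL-13, which signal through IL-4 receptor alpha paired with the common gamma chain (Il2rg) or with IL-13 receptor alpha 1. In mouse macrophages these cytokines act through the transcription factor STAT6 and turn on the genes of alternative activation, of which Retnla and Chil3 are the usual markers. In skin this response is best known from atopic dermatitis, while psoriasis is usually described as a disease of IL-17 and IL-23.

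The members moved in both directions. Of the 10, 6 were higher in Lenv-Treg past the threshold (an adjusted p of 0.05 in limma, over all genes tested), 2 were lower and 2 did not pass. Among all 13945 genes tested, 11.0% were higher, 30.8% lower and 41.7% either. The 3 values of each group did not overlap for 9 of the 10 members and for 55.4% of all genes tested. The median difference was 0.95 over the members and -0.17 over all genes tested, on the scale of log2(FPKM + 1), where FPKM is the number of fragments scaled by gene length and by library depth. All 10 members passed the filter on low values, and since they were picked by name with earlier results of these data known, the counts describe them only.

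**Figure D1:**
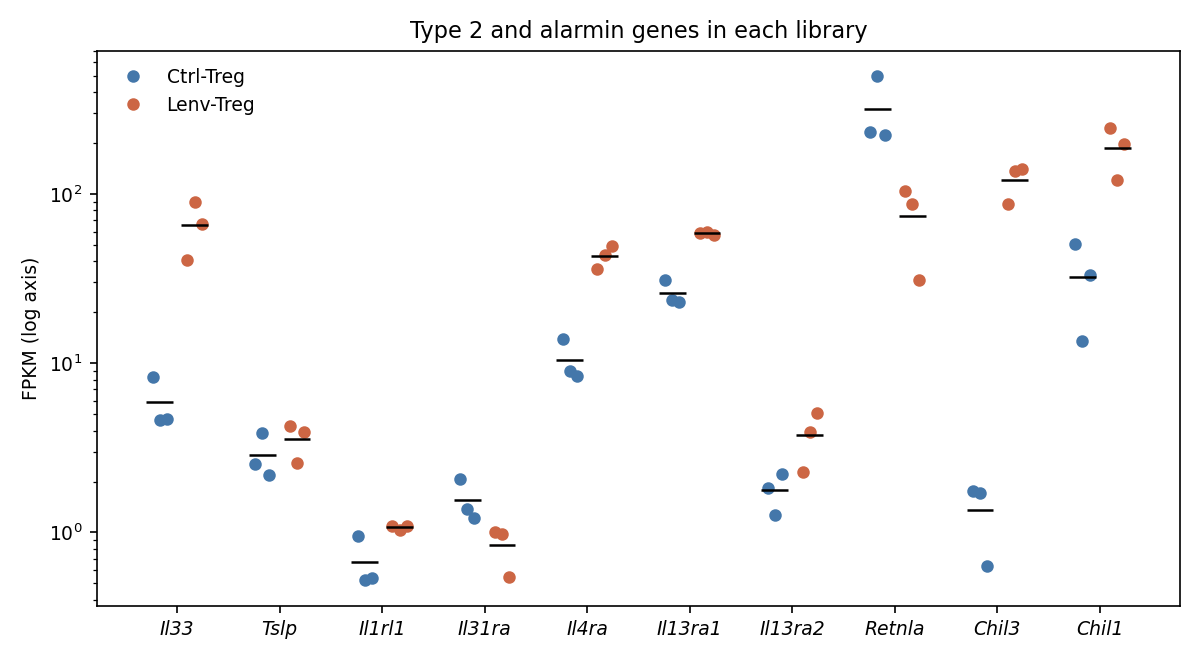
FPKM of each of the 10 genes in every library, on a log axis, with Ctrl-Treg and Lenv-Treg side by side. Each point is 1 library. The groups are clear of each other for 9 genes and overlap for Tslp, and Retnla and Il31ra are the genes whose Lenv-Treg points lie below the Ctrl-Treg points.

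Depth was even, with 38704536 to 40248462 reads assigned to genes per library, a 1.04-fold range, as recovered from the steps of the FPKM values. The tissue label was checked against keratins and collagen: Krt5, Krt14, Krt1, Krt10 and Col1a1 were abundant in all 6 libraries. The kind of Treg transferred could not be read from a gene, so the labels alone set the groups. In a piece of whole skin, fewer cells of a type and less RNA per cell cannot be told apart.

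Most marker lists of other cell types moved between the same groups, and their part in the results on the members was not tested. Of 14 tested neutrophil markers 13 rose and 0 fell, and their summed level was 81.9 to 233 FPKM in Ctrl-Treg against 38280 to 54087 in Lenv-Treg. Of 12 macrophage markers 4 rose and 2 fell (2389 to 3054 FPKM against 3599 to 4110). Of 12 keratinocyte markers 4 rose and 3 fell, while their summed level was higher in every Lenv-Treg library (3800 to 5592 FPKM against 8738 to 10431). All 10 hair follicle markers fell, from a sum of 1317 to 2882 FPKM to one of 2.55 to 18.2, and of 12 adipocyte markers 8 fell and 1 rose (3932 to 5944 FPKM against 2423 to 2992). Fibroblast markers were lower for 5 of 10 and higher for 1 (4931 to 6174 FPKM against 2629 to 3751), and of 9 endothelial markers 2 rose and 0 fell (94.6 to 149 FPKM against 155 to 199). Of 6 tested markers of type 2 innate lymphoid and T helper 2 cells 2 rose and 2 fell, with a higher sum in every Lenv-Treg library (31.7 to 36.2 FPKM against 41.0 to 60.2). Gata3 on this list fell (-1.29), so the higher sum rests on other genes of the list. Of 10 mast cell markers 3 rose and 1 fell, also with higher sums in Lenv-Treg (205 to 288 FPKM against 292 to 460). Sums of 2 lists overlapped between the groups. Of 8 tested Treg markers 1 rose and 0 fell (18.1 to 24.0 FPKM against 18.1 to 30.5). Of 10 skeletal muscle markers 0 rose and 1 fell (3791 to 12065 FPKM against 3385 to 4912). The eosinophil peroxidase gene Epx was at or near 0 in both groups, with means of 0.00254 and 0.00249 FPKM, and the 1 eosinophil marker of 8 that was tested, Ear2, fell (-1.07), with sums of 14.4 to 23.9 FPKM against 8.02 to 10.4.

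Il33, the gene of the alarmin that barrier and stromal cells keep in their nuclei, was at 8.27, 4.64 and 4.69 FPKM in the Ctrl-Treg libraries and at 40.8, 89.8 and 66.2 in the Lenv-Treg libraries. Every Lenv-Treg library lay far above every Ctrl-Treg library, and the spread was wide within Lenv-Treg. The mean rose from 5.87 ± 2.08 to 65.6 ± 24.5 FPKM (SD, n = 3 each), 11.2-fold, with a log2 difference of 3.25 (SE 0.31, 95% interval 2.53 to 3.96, adjusted p = 0.000276 in limma). The values rest on 2083 reads over the Ctrl-Treg libraries and 23535 over the Lenv-Treg libraries. Il33 has 2 annotated starts with promoter sequence in the RefSeq table used here (build GRCm38.p6). The sequence before the first is shown because it holds a motif of STAT6, the factor downstream of IL-4 and IL-13. It covers chr19:29924863-29925112 on the plus strand, ends 1 base before the start, and the match to the motif (TTC, any 4 bases, then GAA) is in capitals, at 36 to 27 bases before the start.
Il33 promoter: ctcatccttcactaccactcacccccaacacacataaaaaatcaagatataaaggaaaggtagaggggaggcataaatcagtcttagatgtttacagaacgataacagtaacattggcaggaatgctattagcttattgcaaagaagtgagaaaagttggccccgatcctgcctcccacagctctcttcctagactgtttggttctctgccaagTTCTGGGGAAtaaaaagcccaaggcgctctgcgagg
The FPKM are summed over a gene, so they do not tell which start was used.

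Tslp, the other epithelial alarmin, is made by keratinocytes and starts type 2 responses through dendritic cells. It was at 2.54, 3.88 and 2.19 FPKM in Ctrl-Treg against 4.28, 2.59 and 3.90 in Lenv-Treg. The groups overlapped, as Lenv-Treg replicate 2 lay near the lower Ctrl-Treg libraries and Ctrl-Treg replicate 2 near the higher Lenv-Treg libraries. The means were 2.87 ± 0.890 and 3.59 ± 0.889 FPKM, and the log2 difference of 0.25 (SE 0.20, 95% interval -0.22 to 0.72) did not pass (adjusted p = 0.343 in limma). Tslp was the member with the fewest reads over both groups, 384 and 487, and its interval reaches up to a difference of 0.72.

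Il1rl1 encodes ST2, the receptor of IL-33, on innate lymphoid cells, mast cells and a share of Treg. It was at 0.953, 0.520 and 0.541 FPKM in Ctrl-Treg against 1.09, 1.04 and 1.10 in Lenv-Treg. The groups did not overlap, but Ctrl-Treg replicate 1 came close to the Lenv-Treg libraries, which lay within a narrow band. The means were 0.671 ± 0.244 and 1.07 ± 0.0326 FPKM, from 594 and 959 reads, and the log2 difference of 0.32 (SE 0.12, 95% interval 0.05 to 0.59) missed the threshold (adjusted p = 0.0593 in limma). It passed under 5 of 17 alternatives, among them median-ratio scaling (0.42, adjusted p = 0.029) and the fit without Ctrl-Treg replicate 1 (0.44, adjusted p = 0.0111). Il1rap, the partner chain of ST2, rose from 2.37 ± 0.306 to 4.58 ± 0.334 FPKM (adjusted p = 0.00157).

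The genes of ligand and receptor were also set against each other within each library. Il1rl1 also has 2 annotated starts, and its FPKM are summed over the gene, so the ratio does not tell which start was used. The ratio of Il33 to Il1rl1 FPKM within a library was 8.68, 8.92 and 8.68 in Ctrl-Treg against 37.5, 86.7 and 60.3 in Lenv-Treg. The 3 Ctrl-Treg ratios were nearly equal although Il33 itself was higher in replicate 1, and the groups did not overlap. The difference of the log2 ratio was 2.73, with p = 0.1 in a two-sided exact permutation test, the smallest p that 3 against 3 libraries can give (0.133 after adjustment over 4 ratios).

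Il31ra encodes the receptor of the itch cytokine IL-31, which is formed with the oncostatin M receptor chain Osmr on sensory nerves, keratinocytes and myeloid cells. It was at 2.08, 1.37 and 1.21 FPKM in Ctrl-Treg against 1.01, 0.974 and 0.547 in Lenv-Treg. Every Lenv-Treg library lay below every Ctrl-Treg library, with a small gap between Ctrl-Treg replicate 3 and Lenv-Treg replicate 1. The mean fell from 1.56 ± 0.462 to 0.844 ± 0.258 FPKM, which is 1.84-fold higher in Ctrl-Treg, with a log2 difference of -0.47 (SE 0.16, 95% interval -0.84 to -0.09, adjusted p = 0.0495 in limma). The call was at the threshold and was lost under 12 of 17 alternatives, including median-ratio scaling (-0.36, adjusted p = 0.132) and the fits without Ctrl-Treg replicate 1 (adjusted p = 0.116), Ctrl-Treg replicate 2 (0.074) or Lenv-Treg replicate 1, 2 or 3 (0.0609, 0.0816 and 0.143). Relative to the median of all genes tested, its difference was -0.29. Of 6 tested markers of sensory nerve and Schwann cells 4 fell and 0 rose, with sums of 49.7 to 79.5 FPKM in Ctrl-Treg against 33.4 to 43.4 in Lenv-Treg, and Scn10a, which marks sensory neuron cell bodies, was at 0 in every library. Their part in the Il31ra result was not tested. Osmr moved the other way, from 6.54 ± 1.03 to 15.3 ± 2.08 FPKM (log2 difference 1.11, adjusted p = 0.000847).

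Both chains that signal for IL-13 rose. Il4ra, the chain shared by the IL-4 and IL-13 receptors, was at 14.0, 8.95 and 8.41 FPKM in Ctrl-Treg against 35.9, 43.8 and 49.5 in Lenv-Treg. The groups were far apart, and the highest Ctrl-Treg library, replicate 1, was the same as for Il33, Il1rl1 and Il31ra. The mean rose from 10.4 ± 3.06 to 43.0 ± 6.84 FPKM, 4.12-fold (log2 difference 1.97, SE 0.20, adjusted p = 0.00037 in limma). Il13ra1, its partner for IL-13, was at 30.9, 23.7 and 23.0 FPKM in Ctrl-Treg against 59.2, 59.6 and 57.1 in Lenv-Treg. The Lenv-Treg libraries agreed closely and all lay above the Ctrl-Treg libraries. The mean rose from 25.8 ± 4.37 to 58.6 ± 1.34 FPKM, 2.27-fold (log2 difference 1.16, SE 0.13, adjusted p = 0.000474). Il2rg, which completes the other IL-4 receptor, rose from 14.2 ± 2.20 to 21.4 ± 1.40 FPKM (0.57, adjusted p = 0.00872), a call lost when rescaled to TPM (0.31, adjusted p = 0.0839).

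The ratio of Il4ra to Il13ra1 FPKM was 0.452, 0.379 and 0.366 in Ctrl-Treg against 0.606, 0.735 and 0.867 in Lenv-Treg. Il13ra1 was thus the more abundant mRNA per length in all 6 libraries. The ratios of the groups did not overlap (difference of log2 ratio 0.88, exact permutation p = 0.1, the smallest possible, 0.133 after adjustment).

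Il13ra2 encodes a second IL-13 receptor, best known as a decoy that binds IL-13 tightly. It was at 1.84, 1.26 and 2.22 FPKM in Ctrl-Treg against 2.29, 3.91 and 5.06 in Lenv-Treg. The groups did not overlap, though Ctrl-Treg replicate 3 and Lenv-Treg replicate 1 nearly met. The mean rose from 1.78 ± 0.482 to 3.75 ± 1.39 FPKM, 2.11-fold, from 546 and 1170 reads (log2 difference 0.75, SE 0.23, 95% interval 0.20 to 1.29, adjusted p = 0.037 in limma). The call was lost with no filter on low values (adjusted p = 0.0999) and without Ctrl-Treg replicate 1 (0.0717), Ctrl-Treg replicate 2 (0.104), Lenv-Treg replicate 2 (0.106) or Lenv-Treg replicate 3 (0.104). The ratio of Il13ra1 to Il13ra2 FPKM was 16.8, 18.7 and 10.3 in Ctrl-Treg against 25.9, 15.2 and 11.3 in Lenv-Treg. Per length, the mRNA of Il13ra1 thus exceeded that of Il13ra2 in every library, which does not give the balance of the proteins. These ratios overlapped between the groups (difference of log2 ratio 0.15, exact permutation p = 0.9, also 0.9 after adjustment), and the sign turned without Ctrl-Treg replicate 3 (-0.11) or without Lenv-Treg replicate 1 (-0.18).

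**Figure D2:**
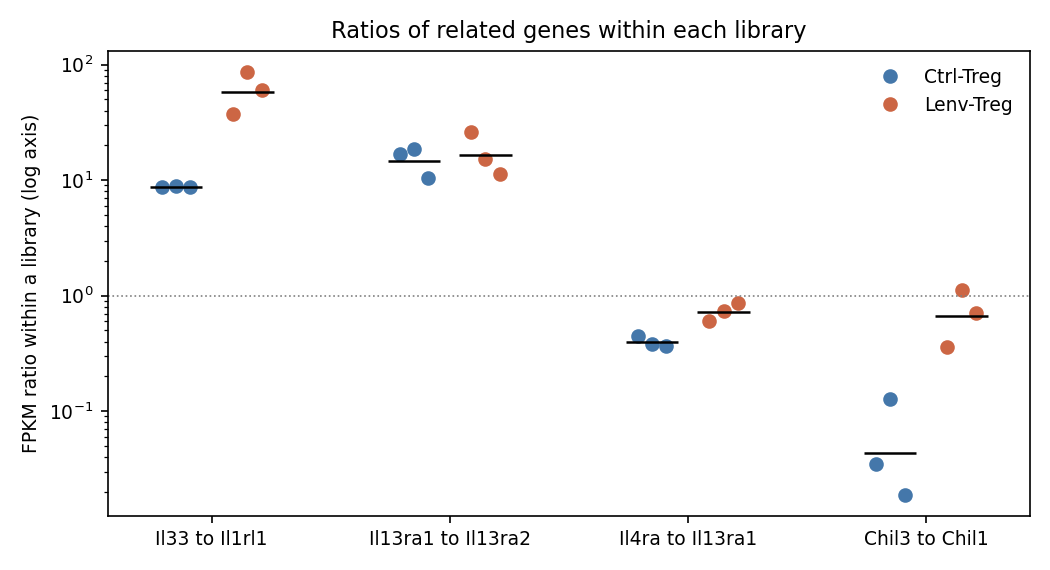
Ratio of the FPKM of related genes within each library, on a log axis, where each point is 1 library, each bar is the mean of the log ratios and the dotted line marks a ratio of 1. Il33 to Il1rl1, Il4ra to Il13ra1 and Chil3 to Chil1 lie higher in all 3 Lenv-Treg libraries, and Il13ra1 to Il13ra2 overlaps.

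The macrophage markers of the type 2 response went in opposite directions. Retnla, which encodes the secreted resistin-like molecule RELM-alpha and is also made by fat tissue, was at 231.6, 498.4 and 222.9 FPKM in Ctrl-Treg against 104.0, 86.8 and 31.0 in Lenv-Treg. Each Lenv-Treg library lay below the lowest Ctrl-Treg library, and Ctrl-Treg replicate 2 stood far above the rest. The mean fell from 317.6 ± 156.6 to 73.9 ± 38.2 FPKM, which is 4.30-fold higher in Ctrl-Treg (log2 difference -2.15, SE 0.49, 95% interval -3.29 to -1.02, adjusted p = 0.0111 in limma). The call held under 17 of 17 alternatives. The summed adipocyte markers were 3932, 5944 and 3989 FPKM in Ctrl-Treg against 2423, 2626 and 2992 in Lenv-Treg. They too were highest in Ctrl-Treg replicate 2, while among the Lenv-Treg libraries their highest sum was in replicate 3, where Retnla was lowest. The summed skeletal muscle markers were 6987, 12065 and 3791 FPKM in Ctrl-Treg against 4912, 3897 and 3385 in Lenv-Treg. These sums overlapped between the groups, and were highest in Ctrl-Treg replicate 2 and lowest in Lenv-Treg replicate 3. The part of either list in the Retnla result was not tested.

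Chil3 encodes Ym1, a chitinase-like protein without chitinase activity that is made by alternatively activated macrophages and also by neutrophils. It was at 1.76, 1.71 and 0.633 FPKM in Ctrl-Treg against 87.4, 136.7 and 140.1 in Lenv-Treg. The lowest Lenv-Treg library was far above the highest Ctrl-Treg library, the widest separation among the 10 genes on a log axis. The mean rose from 1.37 ± 0.636 to 121.4 ± 29.5 FPKM, 88.9-fold, from 245 reads over Ctrl-Treg to 21978 over Lenv-Treg (log2 difference 5.70, SE 0.25, 95% interval 5.11 to 6.30, adjusted p = 2.39e-05 in limma). The neutrophil markers given above rose in the same libraries, and their part in the Chil3 result was not tested. Chil4, the closest relative, shares 95.4% of aligned coding bases with Chil3 and an identical run of 136 bases, so reads could be assigned to either. Chil4 had 2, 3 and 0 reads in the Ctrl-Treg libraries and 60, 18 and 4 in the Lenv-Treg libraries, few beside those of Chil3.

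Chil1 encodes another chitinase-like protein, known as YKL-40 or BRP-39, of macrophages, neutrophils and epithelial cells. It was at 50.5, 13.5 and 33.3 FPKM in Ctrl-Treg against 244.7, 120.9 and 196.2 in Lenv-Treg. All Lenv-Treg libraries were above all Ctrl-Treg libraries, with wide spreads in both groups, and replicate 2 was the lowest in each. The mean rose from 32.4 ± 18.5 to 187.3 ± 62.4 FPKM, 5.77-fold (log2 difference 2.62, SE 0.46, 95% interval 1.54 to 3.69, adjusted p = 0.00386 in limma). The ratio of Chil3 to Chil1 was 0.0349, 0.127 and 0.0190 in Ctrl-Treg against 0.357, 1.13 and 0.714 in Lenv-Treg. Chil1 was the more abundant of this pair in all libraries but Lenv-Treg replicate 2, and the ratios did not overlap (difference of log2 ratio 3.92, exact permutation p = 0.1, the smallest possible, 0.133 after adjustment).

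The promoters of Retnla and Chil3 are shown because both genes are classed as STAT6 targets in macrophages and moved in opposite directions here. That of Retnla covers chr16:48842359-48842550 on the plus strand, as far as an annotated exon that overlaps the rest of the window. That of Chil3 covers chr3:106167565-106167814 on the minus strand. Both are from RefSeq, build GRCm38.p6, written 5′ to 3′ along the gene. In Retnla the capitals mark TTCACAAGAA, a match to the STAT6 motif at 145 to 136 bases before the start, and after 1 base TTGCTAAA, a match to the C/EBP motif TTGCNNAA at 134 to 127.
Retnla promoter: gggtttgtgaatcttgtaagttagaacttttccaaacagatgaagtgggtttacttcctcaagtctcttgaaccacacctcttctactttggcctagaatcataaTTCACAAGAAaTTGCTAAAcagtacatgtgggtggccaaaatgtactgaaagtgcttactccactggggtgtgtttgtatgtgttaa
Chil3 promoter: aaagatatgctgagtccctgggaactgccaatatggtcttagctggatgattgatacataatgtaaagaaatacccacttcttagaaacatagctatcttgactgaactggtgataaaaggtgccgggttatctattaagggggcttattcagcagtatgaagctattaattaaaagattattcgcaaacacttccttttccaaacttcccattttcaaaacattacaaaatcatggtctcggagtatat
The Chil3 window held no match to either motif, nor to the AP-1 motif TGANTCA or the NF-kB motif GGGNNTTCC, which says only that these letters are not in these 250 bases. The STAT6 search covered only the form with 4 bases between TTC and GAA. The Chil3 window does hold ttcttagaa, with fewer bases between them, a form that was not searched. Of the 10 members 9 had promoter sequence in the table, 11 sequences in all, and both strands of the 250 bases before each start were searched. The STAT6 motif was in 2 of the 11 (Retnla and the first Il33 start) and in 5.9% of all 32851 promoters searched. The C/EBP motif was in 3 (Retnla, the first Il1rl1 start and the second Il33 start) and in 9.6% of all promoters. The AP-1 motif was in 1 (Il13ra2, 6.7% of all) and the NF-kB motif in 1 (Il13ra1, 5.0% of all). A match is a run of letters and was not tested for binding.

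**Figure D3:**
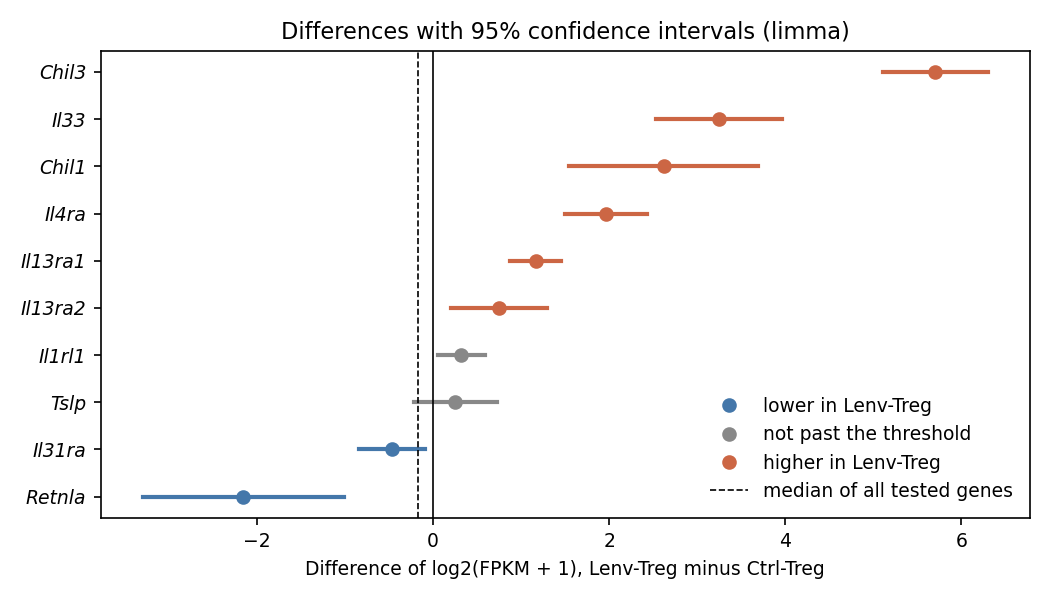
Difference of log2(FPKM + 1), Lenv-Treg minus Ctrl-Treg, of each of the 10 genes, where points are limma estimates, bars are 95% intervals, colours give the call and the dashed line is the median of all genes tested (-0.17). Chil3 lies farthest to the right at 5.70 and Retnla farthest to the left at -2.15, while the interval of Tslp crosses 0.

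Per length, the order of the members changed between the groups. In Ctrl-Treg, Retnla had the highest mean FPKM, clear of Chil1, which overlapped with Il13ra1. Il13ra1, Il4ra, Il33 and Tslp followed, each clear of the next, and below them Tslp, Il13ra2, Il31ra, Chil3 and Il1rl1 overlapped from neighbour to neighbour. In Lenv-Treg, Chil1, Chil3, Retnla, Il33 and Il13ra1 led, and each of these overlapped with its neighbour. Il13ra1, Il4ra and Il13ra2 were clear of each other, Il13ra2 overlapped with Tslp, and Tslp, Il1rl1 and Il31ra were again clear of each other. By the order of the means, Chil3 thus went from the ninth place to the second, and Il31ra from the eighth to the last. Apart from the last place of Il31ra, these places overlapped with those of neighbours.

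The type 2 cytokines themselves were barely detected, and none of the 8 on the list passed the filter. Il4, the cytokine that drives T helper 2 cells, had 28 reads over the Ctrl-Treg libraries and 39 over the Lenv-Treg libraries (0.405 ± 0.0663 and 0.557 ± 0.227 FPKM, exact permutation p = 0.4). Il13 had 9 and 25 reads, 17 of them in Lenv-Treg replicate 3 (0.0628 and 0.174 FPKM, exact permutation p = 0.4). Il5, the eosinophil growth factor, had 2 and 1 reads, Il25, another alarmin, had 3 and 2, and Csf2, the gene of GM-CSF, had 14 and 23. Il9, Il3 and the itch cytokine Il31 were listed at 0 in all 6 libraries, which allows up to 3 reads over a group as counting error. With 3 libraries per group the exact test cannot go below p = 0.1, so it could not have called a difference in these genes. In the limma fit with no filter, Il4 (0.14, adjusted p = 0.428), Il13 (0.13, 0.399) and Csf2 (0.07, 0.631) did not pass. Neither did Il5 (-0.008, 0.668) or Il25 (-0.011, 0.787).

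Beyond the members, 87 further genes of the pathway were followed in 7 lists, the cytokines included, and 60 of them were tested. Of these 24 rose (40.0%) and 8 fell (13.3%), beside 11.0% and 30.8% of all genes tested, with a median difference of 0.22. Rescaled to TPM, the counts became 15 and 15, and without Lenv-Treg replicate 2, 5 fell. The counts of each list are small, and the same shares of all genes tested stand beside them. Receptor chains led: of 10 tested receptor partners 7 rose and 0 fell. Besides Osmr, Il1rap and Il2rg these included Csf2rb, the signalling chain shared by the receptors of IL-3, IL-5 and GM-CSF, which rose from 9.11 ± 2.08 to 19.1 ± 2.88 FPKM (log2 difference 1.00, adjusted p = 0.00354).

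Of 16 signal relay and feedback genes 4 rose and 1 fell. Socs3, a feedback inhibitor of cytokine receptors, rose from 14.2 ± 4.94 to 55.5 ± 14.6 FPKM (1.91, adjusted p = 0.00126), and Myd88, the adaptor of ST2 and of Toll-like receptors, from 26.6 ± 3.72 to 45.4 ± 3.62 FPKM (0.75, adjusted p = 0.0028). Gata3, the master regulator of T helper 2 cells that is also expressed in the hair follicle and epidermis, fell from 21.2 ± 2.90 to 8.18 ± 1.90 FPKM (-1.29, adjusted p = 0.00128). Jak1, the kinase bound to IL-4 receptor alpha, had a difference of 0.37 that did not pass (adjusted p = 0.0574), though it passed under 5 of 17 alternatives, among them median-ratio scaling (0.58, adjusted p = 0.017) and the fits without Ctrl-Treg replicate 1 (0.032) or Lenv-Treg replicate 3 (0.0395).

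Genes of alternative macrophage activation went both ways, as Chil3 and Retnla did: of 12 tested, 7 rose and 3 fell. Mrc1, the mannose receptor CD206, rose from 52.1 ± 10.1 to 128.9 ± 6.86 FPKM (1.31, adjusted p = 0.000704), and Clec10a, a galactose-type lectin, had a difference of 0.89 (adjusted p = 0.00802). Mgl2, the other mouse galactose-type lectin, which also marks a dermal dendritic cell subset, fell from 22.2 ± 2.93 to 4.997 ± 0.467 FPKM (-1.95, adjusted p = 6.37e-05). Pparg, a nuclear receptor of macrophages and of fat cells, fell as well (-1.04, adjusted p = 0.000282). Of 12 adipocyte markers 8 fell and 1 rose, and their part in the Pparg result was not tested.

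Among type 2 chemokines and tissue targets, 1 of 7 tested genes rose and 2 fell, beside 11.0% and 30.8% of all genes tested. Ccl11, the eosinophil attractant eotaxin, did not pass (-0.21, adjusted p = 0.256), but passed as lower when rescaled to TPM (-0.50, adjusted p = 0.0385). Ccl24, eotaxin 2, rose (0.94, adjusted p = 0.018), a call lost with no filter (adjusted p = 0.0595) and without Ctrl-Treg replicate 1 (0.0542) or Lenv-Treg replicate 1 (0.056). Ccl1 fell (-0.66, adjusted p = 0.0454), a call lost under 7 alternatives, among them the fits without Ctrl-Treg replicate 1 (adjusted p = 0.0948), Ctrl-Treg replicate 3 (0.116), Lenv-Treg replicate 2 (0.14) or Lenv-Treg replicate 3 (0.138). It is a low gene that did not pass the filter of 1 FPKM, so it was not tested there. Its difference was -1.71 at a pseudocount of 0.1 and -2.05 with voom on recovered reads. Postn, the matrix protein periostin induced by IL-13, fell from 176.5 ± 30.0 to 71.7 ± 19.0 FPKM (-1.31, adjusted p = 0.00231). Of 10 fibroblast markers 5 were lower and 1 was higher, and their part in the Postn result was not tested.

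Of 5 tested relatives of the effector genes 1 rose and 1 fell, beside 11.0% and 30.8% of all genes tested. Retnlg, a resistin-like gene of neutrophils, rose from 1.89 ± 0.489 to 256.3 ± 94.7 FPKM (6.43, adjusted p = 1.65e-05), while Retn, the adipocyte hormone resistin, fell (-1.11, adjusted p = 0.0172), a call lost with no filter (adjusted p = 0.0539) and without Lenv-Treg replicate 2 (0.0545). Retnla and Retnlg share 84.0% of aligned coding bases with an identical run of 42 bases, so a part of their reads could be assigned to either. Of the 5 relatives tested these were the only ones past the threshold, and the chitinase-domain genes Chid1 (0.06, adjusted p = 0.716) and Ctbs (0.23, adjusted p = 0.13) did not pass. Chid1 turned sign when rescaled to TPM (-0.19) or without Ctrl-Treg replicate 2 (-0.037), and Ctbs when rescaled to TPM (-0.0015), while Ctbs passed as higher under median-ratio scaling (0.40, adjusted p = 0.0287) and quantile normalization (0.46, adjusted p = 0.0194).

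Of 10 tested genes tied to the release of TSLP and IL-33, 4 rose and 1 fell. Klk6, an epidermal protease, rose from 67.8 ± 36.5 to 446.6 ± 85.7 FPKM (2.83, adjusted p = 0.00116), and the desquamation protease Klk7 had a difference of 0.62 (adjusted p = 0.0143), a call lost when rescaled to TPM (0.33, adjusted p = 0.0848) and under quantile normalization (0.35, adjusted p = 0.132). Prtn3, the neutrophil proteinase 3, which can cut IL-33, rose (0.87, adjusted p = 0.00791). F2rl1, the protease-activated receptor PAR2 of keratinocytes, fell from 11.9 to 6.25 FPKM (-0.84, adjusted p = 0.000811).

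**Figure D4:**
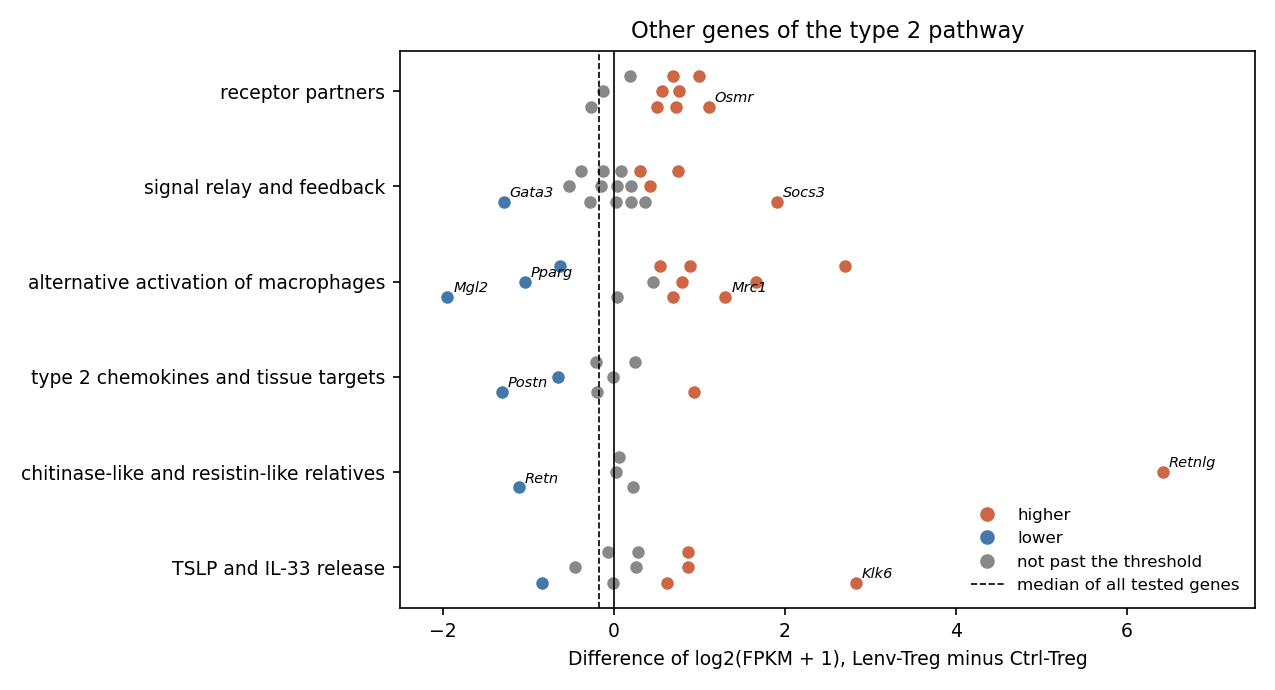
Difference of log2(FPKM + 1), Lenv-Treg minus Ctrl-Treg, of the 60 tested pathway genes outside the 10 members, grouped by list, where each point is 1 gene, colours give the call and the dashed line is the median of all genes tested. Receptor partners hold 7 higher and 0 lower genes, and Retnlg stands alone at 6.43.

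The genes whose levels were most like those of a member over the 6 libraries were taken by Pearson r of log2(FPKM + 1) among 13228 genes. For Il33 they were Ccl3 (r = 0.999), Stx11 and Cyp4f18. For Chil3 they were Clec2f, Ctla2b and Clec4d, for Il4ra Hgf, A4galt and Borcs6, for Il13ra1 Stat3, Fcgr2b and Lgmn, and for Chil1 Tmprss4, Atp12a and Sh3bp2. For Il1rl1 they were Vsir, Tnfrsf13b and Nceh1, and for Il13ra2 Tmem192, Plch2 and Clta. For the genes that were lower they were Fbxo10, Kifbp and Rnf24 (Retnla) and Iqsec2, Akap12 and Ptgfrn (Il31ra). These 6 points share the difference between the groups, so likeness is common: 589 genes had r above 0.95 with Il33 and 603 with Chil3, but 4 with Tslp, whose nearest genes were Clec2i (r = 0.973), Mgat1 and Qsox2. The values describe these libraries only.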

How the data were processed

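RNA-seq of lesional mouse skin gave 6 libraries, 3 from each treatment group. The values were FPKM as deposited by the authors, 1 column per library for 35434 gene symbols. Libraries were made from total RNA with a VAHTS kit, per the labels' protocols. The submitters' processing notes name GRCm39 as the build. The sources used here do not give the aligner, the counting tool or the annotation. The reference tables used for sequences are of GRCm38.p6 (GENCODE M21 and RefSeq), so no other coordinates are printed. The members and lists were chosen with earlier results of these data known.

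Genes with at least 0.5 FPKM in at least 3 of 6 libraries, 13945 in all, were tested with limma 3.58.1 (R 4.3.3, functions lmFit and eBayes with a trend) on log2(FPKM + 1), two-sided, with no covariates, Benjamini-Hochberg adjustment over all of them and a threshold of 0.05. A difference is that of Lenv-Treg minus that of Ctrl-Treg on this log scale, which understates changes of low genes. Folds are ratios of mean FPKM, and errors are SD with n = 3 unless named. The fit was also run on simulated data with few genes changed, in directions drawn at random. That run did not copy the many and mostly lower changes seen here, so it does not test the scaling.

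FPKM of a gene are whole multiples of the value of 1 read, 0.0248 to 0.0258 FPKM on 1 kb. Whole reads were recovered for 13944 of the 13945 genes (99.99%) within 0.005 reads plus 1.5e-07 per read, and summed to 99.61% to 99.7% of the depth. Limma's voom on these reads was an alternative. Others were the pseudocount, the filter, the scaling, weights for samples, the variance model, a block for the replicate number and the removal of each library. Genes outside the filter and ratios were given a two-sided exact permutation test, whose smallest p for 3 against 3 is 0.1. Named were all members, every type 2 cytokine, up to 4 genes of each other list (2 by the highest mean FPKM, then 2 by the smallest p) and the 3 genes most like each member. Marker sums are over 13 lists of cell types. Coding identity was taken from the longest coding transcript of each gene.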

Additional observations from a re-analysis of the deposited data

How the results depend on the processing

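Of the 10 members, Il33, Il4ra, Il13ra1, Chil3, Chil1 and Retnla kept their call and Tslp stayed short of one in all 17 alternatives run. The count of 6 higher members became 7, with Il1rl1 added, under median-ratio scaling, quantile normalization, sample weights and voom. It became 5 with no filter, where Il13ra2 was lost, and was 5 to 6 when 1 library was left out. The count of 2 lower members became 1, with Il31ra lost, at a pseudocount of 0.1, with no filter, with a filter of 1 FPKM, under median-ratio scaling, under quantile normalization, without the variance trend and with sample weights, and was 1 to 2 when 1 library was left out. With voom on recovered reads, the Il31ra difference was -0.90 (adjusted p = 0.0417) and that of Il1rl1 0.73 (adjusted p = 0.0384). The pathway genes, 24 higher and 8 lower, became 15 and 15 when rescaled to TPM, and ranged from 18 to 26 higher and from 5 to 8 lower when 1 library was left out, the lowest without Lenv-Treg replicate 2. Over all genes tested, 1532 higher and 4289 lower became 2417 and 2417 under median-ratio scaling and 947 and 7970 in TPM. Quantile normalization gave 2304 lower, and leaving out 1 library gave 1152 to 1447 higher and 2780 to 3900 lower, the lowest of the latter without Lenv-Treg replicate 2. Their median difference of -0.17 was 0.00 under median-ratio scaling and -0.44 in TPM. The difference of the Il13ra1 to Il13ra2 log2 ratio ranged from -0.18 to 0.42 when 1 library was left out, and was -0.11 without Ctrl-Treg replicate 3. Chid1 turned to -0.19 in TPM and ranged from -0.037 (without Ctrl-Treg replicate 2) to 0.14 when 1 library was left out, and Ctbs turned to -0.0015 in TPM. Rescaling to TPM divides each library by the sum of its FPKM, 458848 to 499306 in Ctrl-Treg against 543189 to 612665 in Lenv-Treg. Apart from that and from fewer libraries in the fits that leave 1 out, the cause was not tested.

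Whether replicate numbers pair the samples was not settled, as 3 libraries per group give few correlations to compare. Same-numbered libraries had correlations of 0.20, -0.01 and 0.33 in their deviations from the group means. Libraries numbered 1 and 3 correlated best with their own number, and those numbered 2 did not. With the replicate number as a block, 6 members were higher and 2 lower, 24 pathway genes were higher and 10 lower, and 1637 and 4270 of all genes tested. With 3 libraries per group and the spread between them, differences of the size seen for Tslp could not be separated from 0.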

Other observations

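Genes that stand next to the members in the RefSeq order (GRCm38.p6, used for order only) moved in both directions. Of 40 neighbours within 2 places of a member, 24 were tested, 5 rose and 3 fell, beside 11.0% higher and 30.8% lower among all genes tested. These counts are small and describe the neighbours only. Il1rl1 lies in a cluster of receptors of the IL-1 family. There Il18rap, the signalling chain of the IL-18 receptor, rose by a log2 difference of 1.64 (adjusted p = 0.00025 in limma), Il1rl2, the IL-36 receptor, by 0.44 (adjusted p = 0.0164) and Il1r1, the IL-1 receptor, by 0.41 (adjusted p = 0.013). Il18r1 was at 0.18 and did not pass (adjusted p = 0.275). Retnla, which fell, stands beside Retnlg, which rose, and near Dzip3, which had a difference of -0.55 (adjusted p = 0.00308). Il4ra stands beside Il21r, the receptor of IL-21, which rose by 0.65 (adjusted p = 0.0107), and near Gtf3c1, a subunit of a transcription factor of RNA polymerase III, which had a difference of -0.40 (adjusted p = 0.0105). Gypc, a membrane protein gene beside Tslp, had a difference of -0.48 (adjusted p = 0.0128). Each of these 3 passed as lower. Chil1 stands beside the chitinase gene Chit1, at 0.03 (adjusted p = 0.925), and Il31ra beside Il6st, the gp130 chain, at -0.37 (adjusted p = 0.164), and neither passed. These neighbours were named after their values were seen.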
